A study of Drosophila melanogaster with 31 samples.

Results

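The stress-inducible Hsp70 genes of Drosophila melanogaster were followed in RNA-seq libraries made from single clones of the larval eye imaginal disc, the epithelium that gives rise to the adult eye. The set was chosen by gene name and held 7 of the 17559 features in the count table: the 6 Hsp70 copies Hsp70Aa, Hsp70Ab, Hsp70Ba, Hsp70Bb, Hsp70Bbb and Hsp70Bc, and their more distant relative Hsp68. Values of these copies are often not whole numbers, as they are when a read that fits several near-identical copies is split between them, so the 6 copies were added up in each library and are called the Hsp70 sum, while Hsp68 was kept apart.

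Each library came from about 50 cells of a single clone, cut by laser from the anterior, still dividing region of the disc of a wandering larva in the third instar. The clones fell into 8 groups. foxoRi clones carried an RNA interference construct against the transcription factor gene foxo that had been switched on, and wt clones were isogenic controls without knockdown. Tsc1_foxoRi clones were in addition homozygous for the nonsense allele Tsc1[Q87X], which removes a brake on the growth kinase complex mTORC1, and Tsc1 clones carried that allele without knockdown. Every genotype was collected from normal food and from nutrient restriction (NR), in which yeast was reduced to 10% of the normal amount and larvae were dissected at a later age. After the filter described below, foxoRi clones gave 2 libraries on NR and 4 on normal food, against 4 and 3 for wt clones, and Tsc1_foxoRi and Tsc1 clones gave 4 libraries on each food.

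The knockdown was switched on by moving larvae to 30 °C for the last 12 h before dissection, whereas larvae without knockdown stayed at 25 °C. Temperature, activity of the Gal4 driver and loss of foxo therefore cannot be told apart in these data, and every comparison of knockdown with no knockdown below is also a comparison of 30 °C with 25 °C. All clones, those at 25 °C included, carried a heat-shock FLP recombinase, a temperature-sensitive Gal80, a ubiquitous Gal4 and the UAS construct against foxo, and all larvae had received an 11 min heat shock at 37 °C as early larvae, 36 h after egg laying. Larvae were not selected for sex, and 1 replicate is 1 clone, so the spread between replicates contains biological and technical parts.

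Hsp70 proteins bind unfolded stretches of other proteins and, with J-domain co-chaperones, help them refold. In flies the inducible copies are nearly silent at ordinary temperature and are among the most strongly induced genes on heat, when heat shock factor (Hsf) binds to their promoters and releases a polymerase that waits just downstream of the start site. The Hsp70 promoter is also a laboratory tool: it drives the heat-shock FLP recombinase, and the basal promoter of common UAS vectors was taken from an Hsp70 gene. Reads from such pieces cannot be told apart from reads of the chromosomal genes in a table of counts per gene.

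All 7 genes lie on chromosome arm 3R and have 1 exon in the BDGP6.54 annotation. Hsp70Aa (FBgn0013275, positions 11954163 to 11956544, minus strand) and Hsp70Ab (FBgn0013276, 11958535 to 11960909, plus strand) form a divergent pair, called the A copies here. The B copies follow in a second cluster, with Hsp70Ba (FBgn0013277, 12465453 to 12467776, minus strand) at its start and Hsp70Bbb (FBgn0051354, 12502510 to 12504856), Hsp70Bb (FBgn0013278, 12505793 to 12508139) and Hsp70Bc (FBgn0013279, 12509076 to 12511461) in a row on the plus strand. Hsp68 (FBgn0001230, 24055080 to 24057310, minus strand) lies far from both clusters. Hsp70Ab overlaps CG3281 and Hsp68 overlaps CG6000 and lncRNA:CR44097, each on the opposite strand. No use of strand in counting is stated, so reads of these pairs cannot be told apart; the 3 overlapping genes were not called in the pooled knockdown comparison, with log2 fold changes of 0.41 for CG3281, -0.16 for CG6000 and -0.13 for lncRNA:CR44097. They were not called in the pooled Tsc1 against wt comparison either, with -0.11 for CG3281, 0.71 ± 0.27 (SE, edgeR adjusted p = 0.13) for CG6000 and 0.70 ± 0.28 (adjusted p = 0.152) for lncRNA:CR44097.

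Libraries held 6877877 to 13316136 counts (median 9724622), and ribosomal RNA genes took 27.3% to 55.9% of them. Of the 31 libraries, the 2 with the fewest detected genes were left out, which leaves 29. Levels are given as CPM, counts per 1000000 counts after scaling by trimmed-mean (TMM) factors. The 8 genes listed as markers of the eye progenitor region summed to 982 to 2667 CPM in each of the 29 libraries. Fat body markers (Fbp1, Fbp2, Lsp1beta and Lsp2, storage proteins of another larval tissue) summed to 381 to 2592 CPM in 3 libraries, Tsc1_foxoRi NR replicate 3 and Tsc1 NR replicates 3 and 4, and to 0.41 to 42.2 CPM in the other 26, with all 4 genes detected in both sets. Photoreceptor markers summed to 744 to 1344 CPM in 6 libraries and to 36.8 to 398 CPM in the other 23. foxo RNA itself averaged 57.8 ± 28.4 CPM (SD, n = 2) in foxoRi and 49.8 ± 9.22 CPM (n = 4) in wt clones on NR, and 38.7 ± 10.5 CPM in Tsc1_foxoRi and 26.4 ± 2.06 CPM (n = 4 each) in Tsc1 clones on NR. On normal food foxo averaged 37.1 ± 8.44 CPM (n = 4) in foxoRi and 45.4 ± 21.5 CPM (n = 3) in wt clones, and 29.4 ± 9.18 CPM in Tsc1_foxoRi and 34.5 ± 3.15 CPM (n = 4 each) in Tsc1 clones. Pooled over both genotypes and foods foxo was not called between knockdown and no knockdown, with a log2 fold change of 0.06 ± 0.15 (SE, edgeR adjusted p = 1.00), so these counts do not show a loss of foxo RNA in the libraries labelled foxoRi. The study also reported no drop in foxo transcripts. From antibody staining of nuclear FoxO protein in Tsc1 mutant clones it judged the knockdown adequate after a 12 h shift. Reads of the interference hairpin and of foxo itself cannot be told apart here, and the groups below are called by their labels. Tsc1 RNA cannot serve as a check of the allele, because Tsc1[Q87X] is a base change.

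The first question was how high the Hsp70 sum stood in each group. In clones with foxo knockdown at 30 °C it lay between 31.6 and 916 CPM (median 435, n = 14), against 0.87 to 508 CPM (median 11.6, n = 15) in clones without knockdown at 25 °C. The lowest library at 30 °C was exceeded by 4 libraries at 25 °C, Tsc1 NR replicates 3 and 4 and wt NR replicates 2 and 4, so the ranges overlapped. In such pooled RNA, more cells of a type and more RNA per cell cannot be told apart. Without the 3 libraries high in fat body markers the ranges were 31.6 to 916 CPM (n = 13) at 30 °C and 0.87 to 65.9 CPM (n = 13) at 25 °C, and 12 of the 13 libraries at 30 °C stood above every library at 25 °C. That exclusion was chosen after seeing the data and takes out the 2 libraries at 25 °C with the highest Hsp70 sum.

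On normal food the split was widest in Tsc1 mutant cells. The Hsp70 sum was 601, 516, 711 and 433 CPM in the 4 Tsc1_foxoRi clones, against 0.87, 3.83, 11.6 and 28.3 CPM in the 4 Tsc1 clones. The groups did not overlap, and the lowest Tsc1_foxoRi clone still stood far above the highest Tsc1 clone. In foxoRi clones on normal food the sum was 31.6, 511, 140 and 160 CPM, against 11.9, 5.05 and 9.94 CPM in the 3 wt clones. Again the groups did not overlap, but foxoRi replicate 1, above every clone kept at 25 °C on normal food, lay inside the range of all clones at 25 °C.

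On NR the 2 foxoRi clones had 176 and 240 CPM of the Hsp70 sum, against 13.0, 33.6, 6.40 and 65.9 CPM in the 4 wt clones, with no overlap. Tsc1_foxoRi clones on NR had 470, 437, 424 and 916 CPM, against 10.7, 8.96, 508 and 190 CPM in Tsc1 clones. Here the groups overlapped, because Tsc1 replicate 3 reached the level of clones at 30 °C and replicate 4 lay between the others, while replicates 1 and 2 were as low as wt clones on normal food. Tsc1 NR replicates 3 and 4 are the same libraries that held 741 and 381 CPM of fat body markers. Tsc1_foxoRi NR replicate 3, with 2592 CPM of those markers, had the lowest Hsp70 sum of its group.

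**Figure D1:**
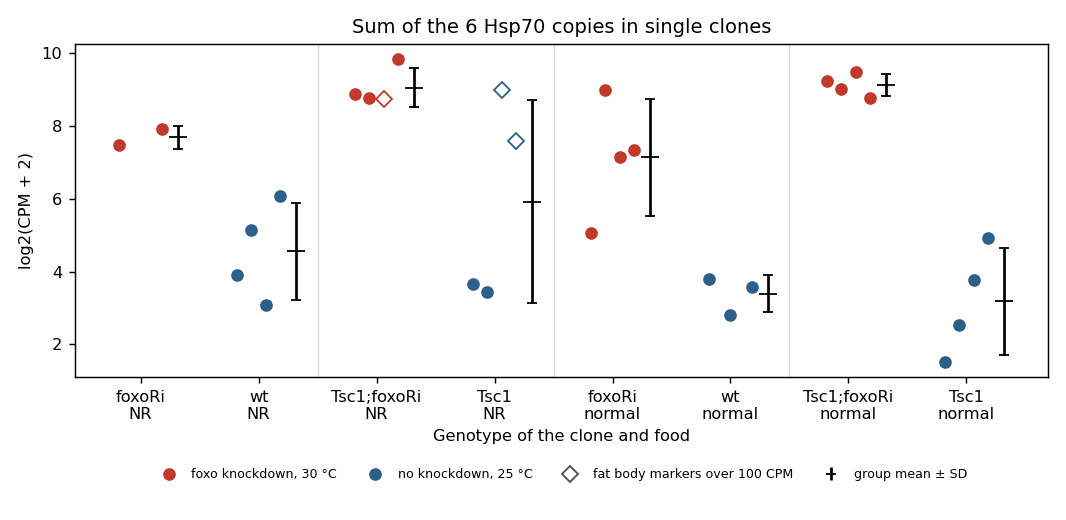
Summed level of the 6 Hsp70 copies in each of the 29 libraries, as log2(CPM + 2) on the vertical axis, by genotype and food on the horizontal axis. Red points are clones with foxo knockdown at 30 °C, blue points are clones without knockdown at 25 °C, open diamonds are the 3 libraries with over 100 CPM of fat body markers, and black bars give the group mean ± SD; apart from the open diamonds, the 2 blue points above the lowest red point are wt NR clones at 33.6 and 65.9 CPM.

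In order of mean log2(CPM + 2), Tsc1_foxoRi clones on normal food (9.12 ± 0.31, SD, n = 4) and on NR (9.06 ± 0.53, n = 4) came first, followed by foxoRi clones on NR (7.70 ± 0.31, n = 2) and on normal food (7.14 ± 1.61, n = 4). Tsc1 clones on NR (5.93 ± 2.79, n = 4), wt clones on NR (4.55 ± 1.33, n = 4), wt clones on normal food (3.40 ± 0.51, n = 3) and Tsc1 clones on normal food (3.19 ± 1.48, n = 4) made up the lower part. Of the 7 neighbouring pairs in that order only Tsc1_foxoRi NR and foxoRi NR, with 2 clones, did not overlap. Both Tsc1_foxoRi groups, with minima of 424 CPM on NR and 433 CPM on normal food, stood above those 2 clones. They overlapped groups further down, with foxoRi replicate 2 on normal food at 511 CPM and Tsc1 NR replicate 3 at 508 CPM. The order of the other neighbours is not resolved by these libraries.

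Fitted over all 13509 features that passed the filter on low counts, the Hsp70 sum was higher with knockdown at 30 °C by 3.66 ± 0.53 on the log2 scale (SE), or 12.7-fold, when both genotypes and both foods were weighed equally (edgeR quasi-likelihood test, Benjamini-Hochberg adjusted p = 0.000821). A feature is called here when its adjusted p is under 0.2 and its log2 fold change exceeds 0.8 in size, and 0.859% of tested features were called in this comparison and 0.518% were called higher. All 6 copies were called higher when fitted as separate rows. An exact 2-sided permutation test within the 4 combinations of genotype and food gave a mean difference of 3.99 in log2(CPM + 2), with p = 3.11e-06 and 9.33e-05 after adjustment over the 30 such tests of both genes, and the mean was higher with knockdown in 4 of 4 combinations. The call held in each of 29 fits that left out 1 library, with values of 3.43 to 4.01.

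Within the 4 combinations only Tsc1 clones on normal food passed, with a log2 fold change of 5.66 ± 1.08 (edgeR adjusted p = 0.0951), among 0.0296% of features called. That call was lost without any 1 of Tsc1 replicates 1, 2 and 3 on normal food. Over all 29 fits without 1 library the value stayed between 5.25 and 6.69. For foxoRi against wt clones on normal food the fitted difference was 4.54 ± 1.17 (adjusted p = 0.234), where 0.0814% of features were called, and it was called with all 31 libraries and by DESeq2. In wt clones on NR it was 2.81 ± 1.05 (adjusted p = 0.896), where edgeR called 0 features, 489 had an unadjusted p under 0.05 and DESeq2 called 54. In Tsc1 clones on NR it was 1.65 ± 0.91 (adjusted p = 0.878), where 0.873% of features were called, 3.01 without Tsc1 replicate 3, and 5.90 ± 1.21 (adjusted p = 0.633) without the libraries high in fat body markers. With 4 clones against 4 the exact permutation test could not go below p = 0.0286, which it reached in Tsc1 clones on normal food. The same exact permutation test gave p = 0.114 in Tsc1 clones on NR, 0.133 in wt clones on NR (smallest possible 0.0667) and 0.0571 in wt clones on normal food (smallest possible 0.0286).

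Groups that do not overlap are common with so few clones. Of all tested features 2.26% stood higher in every Tsc1_foxoRi than in every Tsc1 clone on normal food, and 1.68% did so on NR. The share was 2.75% for foxoRi against wt clones on normal food and 6.04% on NR. The Hsp70 sum was among them except in Tsc1 mutant clones on NR.

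Whether the difference itself varied with genotype or food was tested as an interaction in the same fit. Tsc1 minus wt clones gave -0.02 ± 0.95 for the Hsp70 sum, averaged over foods (edgeR adjusted p = 1.00), and NR minus normal food gave -2.87 ± 1.01, averaged over genotypes (adjusted p = 0.581). In both interactions edgeR called 0 features, while 1151 and 1010 had an unadjusted p under 0.05 and DESeq2 called 75 and 64. Without the libraries high in fat body markers the genotype term was 2.06 ± 0.85 (adjusted p = 0.53), which turns its direction. The data therefore give no call on whether the Hsp70 sum moved more in Tsc1 mutant or in wt clones.

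Hsp68, whose protein is a close relative of Hsp70 and is likewise made on heat, had a lower median level than the Hsp70 sum in each of the 8 groups. Divided by the mean exon length of 1 copy, the group medians of the Hsp70 sum were 42.5 to 237 CPM per kb in the 5 highest groups. Those of Hsp68, divided by its own exon length, did not exceed 7.10 CPM per kb in any group. The values of the sum hold 6 genes over the length of 1, so they do not set a single copy against Hsp68. In the 3 lowest groups the Hsp70 sum had medians of 9.87 (wt NR), 4.21 (wt normal food) and 3.26 CPM per kb (Tsc1 normal food), with Hsp68 at 0.83, 0.08 and 0.87 CPM per kb in the same groups, and Tsc1 replicate 1 on normal food had more Hsp68 (1.64 CPM) than Hsp70 sum (0.87 CPM). In foxoRi clones on normal food Hsp68 was 6.39, 4.97, 2.34 and 8.10 CPM, against 0.19, 0.15 and 0.21 CPM in wt clones. The wt values rest on 2, 1 and 2 counts, so the ratio of summed counts per total count of 33.5 has a 95% exact interval of 14.1 to 104, which covers counting error only. The groups did not overlap. In Tsc1_foxoRi clones on normal food Hsp68 was 17.7, 7.67, 6.70 and 6.59 CPM, against 1.64, 1.86, 2.80 and 2.02 CPM in Tsc1 clones, also without overlap.

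On NR this separation was not seen. The 2 foxoRi clones had 2.84 and 2.77 CPM of Hsp68, against 2.31, 2.79, 0 and 1.39 CPM in wt clones. The value of 0 is a count of 0, which allows up to 3 counts, or 0.274 CPM before TMM scaling, in that library. Tsc1_foxoRi clones had 4.19, 10.9, 7.29 and 9.41 CPM, against 2.95, 0.85, 84.7 and 28.7 CPM in Tsc1 clones. Tsc1 NR replicates 3 and 4 held the highest Hsp68 of all 29 libraries, above every clone at 30 °C, and are the libraries with 741 and 381 CPM of fat body markers. Tsc1_foxoRi NR replicate 3 had 2592 CPM of those markers and an Hsp68 level inside the range of its group.

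**Figure D2:**
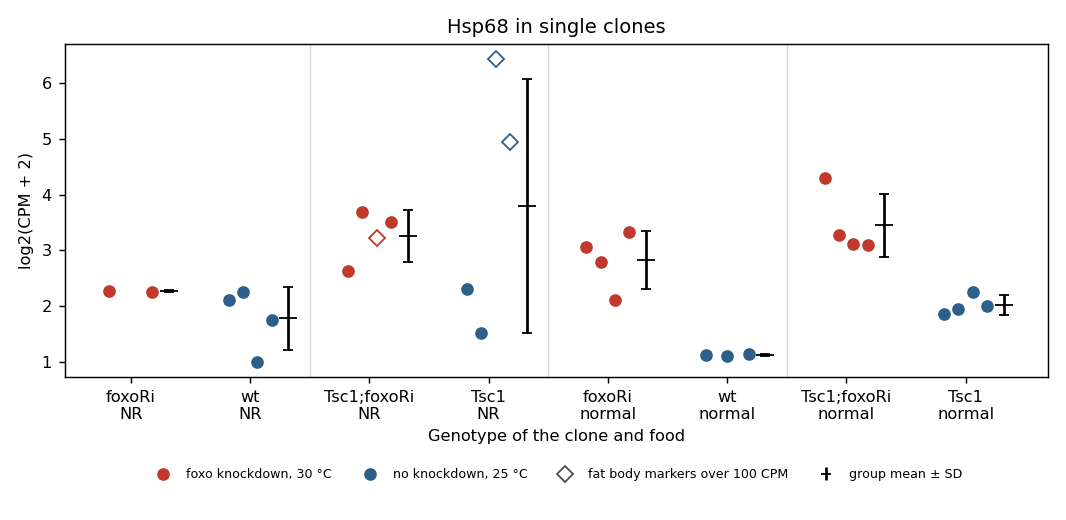
Hsp68 in each of the 29 libraries, as log2(CPM + 2) on the vertical axis, by genotype and food on the horizontal axis. Symbols are red for foxo knockdown at 30 °C, blue for no knockdown at 25 °C and open diamonds for libraries with over 100 CPM of fat body markers, with black bars for the group mean ± SD; the 2 blue diamonds in Tsc1 NR clones stand at 84.7 and 28.7 CPM and the 3 wt clones on normal food between 0.15 and 0.21 CPM.

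Pooled over genotypes and foods, Hsp68 differed between knockdown at 30 °C and no knockdown at 25 °C by a log2 fold change of 1.47 ± 0.48, which was not called (edgeR adjusted p = 0.212). It was called by DESeq2 (1.53, adjusted p = 0.0625) and, at 2.45 ± 0.45 (edgeR adjusted p = 0.0133), without the libraries high in fat body markers. That exclusion was chosen after seeing the data. It takes out the 2 libraries at 25 °C with the highest Hsp68, so a larger difference was bound to follow. The exact permutation test gave a mean difference of 0.77 in log2(CPM + 2), with p = 0.0403 and 0.151 after adjustment over 30 tests, and the mean was higher with knockdown in 3 of 4 combinations. The fitted differences were 2.21 ± 0.87 (adjusted p = 0.656) in Tsc1 clones on normal food, 4.78 ± 1.21 (adjusted p = 0.234) in wt clones on normal food, 0.79 ± 1.02 (adjusted p = 0.947) in wt clones on NR and -1.88 ± 0.84 (adjusted p = 0.722) in Tsc1 clones on NR. The last of these turned to 1.99 ± 0.99 (adjusted p = 1.00) without the libraries high in fat body markers. The food interaction of Hsp68 was -4.04 ± 1.02 (edgeR adjusted p = 0.559, called by DESeq2 at -4.11 with adjusted p = 0.0151), and the genotype interaction -2.62 ± 0.96 (adjusted p = 0.48).

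The comparison of Tsc1 mutant with wt clones was called for both genes. Hsp68 was higher in Tsc1 than in wt clones by 2.47 ± 0.52 on the log2 scale, or 5.55-fold, with knockdown states and foods weighed equally (edgeR adjusted p = 0.00337). The exact permutation test gave a mean difference of 1.13 in log2(CPM + 2) with p = 0.00014 (0.00209 adjusted over 30 tests), and the mean was higher in Tsc1 mutant clones in 4 of 4 combinations. The call held in each of 29 fits without 1 library (2.11 to 2.58) and without the libraries high in fat body markers (1.47 ± 0.44, adjusted p = 0.0548). The Hsp70 sum was higher in Tsc1 than in wt clones by 1.44 ± 0.51 (edgeR adjusted p = 0.0929), with a permutation p of 0.0338 (0.145 adjusted). That call was lost without Tsc1 NR replicate 3 and without either foxoRi NR clone, where values stayed between 1.10 and 1.67 over all 29 fits, with a replicate block (1.08, edgeR adjusted p = 0.236), and without the libraries high in fat body markers, where 0.38 ± 0.41 remained (adjusted p = 0.74). This comparison called 7.47% of all tested features, and 5.61% of all tested features were called higher. Markers of other tissues moved with it: 3 of 5 muscle markers (Mhc, Mlc2 and Act57B) and 1 of 4 fat body markers (Lsp1beta) were called higher in Tsc1 mutant clones. Of the 6 photoreceptor markers only Pph13 was fitted above 0 and called (2.57 ± 1.11, edgeR adjusted p = 0.193), against a list median of -0.75. Among the 4 glia and 4 hemocyte markers 0 were called. The muscle markers summed to 3.92 to 56.7 CPM in Tsc1 mutant and 3.14 to 19.3 CPM in wt clones, and the fat body markers to 0.41 to 2592 CPM in Tsc1 mutant and 1.06 to 42.2 CPM in wt clones. Their part in the Hsp70 values was not tested beyond the fits without those 3 libraries.

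Within the combinations, Hsp68 was called higher in Tsc1 than in wt clones on NR without knockdown, by 4.16 ± 0.94 (edgeR adjusted p = 0.0558), where 0.651% of features were called. That value fell to 0.25 ± 0.88 (adjusted p = 1.00) without the libraries high in fat body markers. It was not called without Tsc1 replicate 3 (2.73) or wt replicate 4, nor with all 31 libraries. On normal food without knockdown Hsp68 was 1.64 to 2.80 CPM in the 4 Tsc1 clones, against 0.15 to 0.21 CPM in the 3 wt clones, with no overlap, a fitted difference of 3.40 ± 1.18 (edgeR adjusted p = 0.328) and an exact permutation p of 0.0286, the smallest that 4 against 3 clones allow. Of all tested features 3.36% stood higher without overlap there. The ratio of summed counts was 12.5 (95% exact interval 5.15 to 39.6, counting error only). With knockdown, the Hsp70 sum in Tsc1_foxoRi clones on NR was above both foxoRi clones (424 to 916 against 176 and 240 CPM), with a fitted difference of 1.44 ± 1.16 (edgeR adjusted p = 0.529), in a comparison where 10.1% of features were higher without overlap. On normal food with knockdown, 4 Tsc1_foxoRi clones at 433 to 711 CPM overlapped 4 foxoRi clones at 31.6 to 511 CPM, and the difference was 1.42 ± 0.90 (adjusted p = 0.588). Hsp68 was not called with knockdown, at 1.50 ± 1.09 on NR (edgeR adjusted p = 0.478) and 0.82 ± 0.83 on normal food (adjusted p = 0.764).

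Food gave no call for the Hsp70 sum or Hsp68, and because NR larvae were older at dissection, food and larval age cannot be told apart. NR against normal food, pooled over the 4 genotype and knockdown states, differed by 1.42 ± 0.48 for the Hsp70 sum (edgeR adjusted p = 0.425) and by 1.40 ± 0.48 for Hsp68 (adjusted p = 0.433), where 0.104% of features were called. The largest fitted differences were in Tsc1 clones, at 4.005 ± 1.004 for the Hsp70 sum (edgeR adjusted p = 0.514) and 3.81 ± 0.92 for Hsp68 (adjusted p = 0.463), where 0.0074% of features were called. Without Tsc1 NR replicate 2 both were called, as was Hsp68 without wt NR replicate 3, and without Tsc1 NR replicate 3 they were 2.64 and 2.37. Both turned negative without the libraries high in fat body markers, to -0.21 ± 0.89 and -0.14 ± 0.89. In Tsc1_foxoRi clones the Hsp70 sum differed by -0.01 ± 0.88 between foods (edgeR adjusted p = 1.00), although 1.56% of features were called there.

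**Figure D3:**
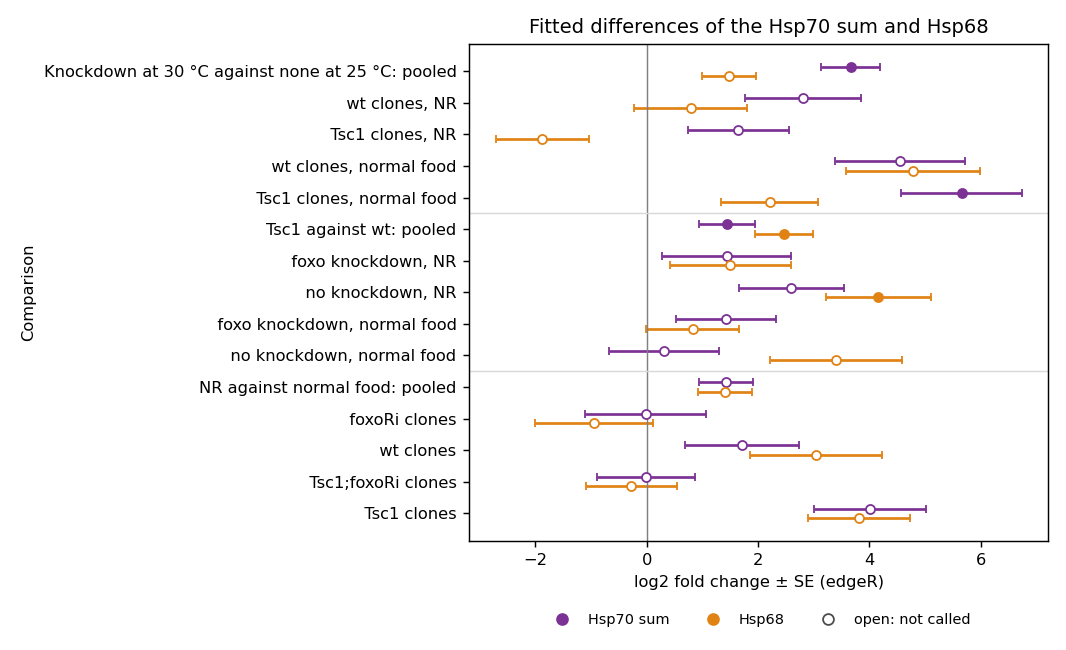
Fitted log2 fold changes ± SE (edgeR, 29 libraries) on the horizontal axis for the Hsp70 sum (purple) and Hsp68 (orange), one comparison per line, pooled and within each combination. Filled points passed both thresholds (0.2 for the adjusted p, 0.8 for the size of the log2 fold change); for the Hsp70 sum the knockdown comparison, pooled (3.66) and in Tsc1 clones on normal food (5.66), and the pooled Tsc1 comparison (1.44) are filled, and for Hsp68 the Tsc1 comparison, pooled (2.47) and on NR without knockdown (4.16).

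The split of reads among the copies differed between the conditions. A copy's own count is uncertain, since reads that fit several copies appear to be divided among them: Hsp70Bbb had counts that were not whole numbers in 29 of the 29 libraries where it was detected, against 10 of 28 for Hsp68 (out of 31 libraries, tolerance 0.005). In foxo knockdown clones at 30 °C Hsp70Bb took the largest share in 14 of 14 libraries, at 36.5% to 60.2% of the Hsp70 counts (median 48.2%). At 25 °C its share was 18.59% to 53.55% (median 28.1%) in the 12 libraries with at least 50 Hsp70 counts, and it was the largest in 8 of them. Hsp70Ba, the inverted copy at the edge of the B cluster, took 15.29% to 30.45% (median 20.04%) at 30 °C and 5.90% to 23.35% (median 13.98%) at 25 °C. Hsp70Bbb and Hsp70Bc, the neighbours of Hsp70Bb, had medians of 7.90% and 7.66% at 30 °C and 10.1% and 8.64% at 25 °C.

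The A copies moved the other way as a share. Together Hsp70Aa and Hsp70Ab made up 5.02% to 30.7% of the Hsp70 counts at 30 °C (median 14.0%, n = 14), against 6.31% to 52.6% at 25 °C (median 33.1%, n = 12 with at least 50 counts). Over all 29 libraries the mean difference within the combinations of genotype and food was -22.9 percentage points (exact 2-sided permutation p = 0.000627), and -16.7 points with the minimum of 50 counts (p = 0.00237). The share of Hsp70Bb differed by 18.5 percentage points (exact permutation p = 0.000517). These shares were singled out after their values had been seen, so the p values are descriptive.

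The clones at 25 °C with a high Hsp70 sum did not all share a composition. In Tsc1 NR replicates 3 and 4, high in fat body markers, the A copies made up 39.5% and 34.9% and Hsp70Bb 27.9% and 28.2% of the Hsp70 counts. In wt NR replicates 2 and 4, with 841 and 744 CPM of photoreceptor markers, the A copies made up 17.9% and 6.31% and Hsp70Bb 53.55% and 50.57%, which lies inside the range at 30 °C. Tsc1 replicate 4 on normal food, at 28.3 CPM the highest of its group and with 1062 CPM of photoreceptor markers, had 15.4% on the A copies and 46.9% on Hsp70Bb. The photoreceptor-rich libraries also had the highest Hsp70 sum of their group among foxoRi clones on NR (240 CPM) and on normal food (511 CPM), but the lowest among Tsc1 clones on NR (8.96 CPM). That Tsc1 library, NR replicate 2 with 924 CPM of photoreceptor markers, had 49.6% on the A copies and 18.9% on Hsp70Bb, unlike the other photoreceptor-rich libraries at 25 °C. The part of other cells in these values was not tested; without the 6 photoreceptor-rich libraries the pooled knockdown difference of the Hsp70 sum was 3.93 ± 0.46 (edgeR adjusted p = 2.31e-05).

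**Figure D4:**
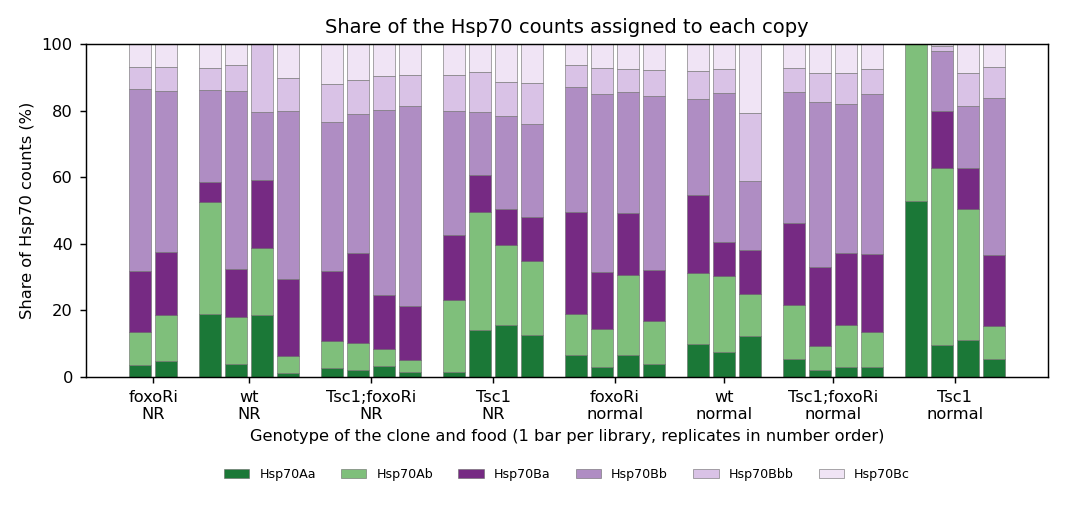
Share of the Hsp70 counts of each library, in percent on the vertical axis, assigned to each of the 6 copies, with 1 bar per library ordered by replicate within its group on the horizontal axis. Greens are the A copies and purples the B copies; Hsp70Bb is the largest piece in all 14 libraries at 30 °C, and the first bar of Tsc1 normal rests on 8.5 counts.

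Fitted as separate rows, all 6 copies were called in the pooled knockdown and the pooled Tsc1 comparison, as the sum was, but the A copies differed from it elsewhere. In the pooled knockdown comparison the log2 fold changes were 2.24 ± 0.49 for Hsp70Aa and 2.83 ± 0.45 for Hsp70Ab, and 3.31 to 4.19 for the 4 B copies, with the largest for Hsp70Bb (4.19 ± 0.61, edgeR adjusted p = 0.000766). In Tsc1 clones on normal food the fit with the copies summed called 0.0296% of features. As separate rows 5 of 6 copies were called there, from 4.74 for Hsp70Ab to 6.01 for Hsp70Ba. Hsp70Aa (4.40, edgeR adjusted p = 0.231) was not. Each of these 5 calls was lost without Tsc1 replicate 1 or 2 on normal food, and those of Hsp70Bb, Hsp70Bbb and Hsp70Bc also without replicate 3. In Tsc1 clones on NR none was called, the B copies had differences of 1.49 to 2.56, and Hsp70Aa and Hsp70Ab stood at -1.13 and -0.38, opposite in sign to the sum. Those negative values became 4.02 and 3.65 without the libraries high in fat body markers. In wt clones none of the copies was called on either food, with differences of 2.38 to 2.92 on NR and 3.12 to 5.33 on normal food.

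The A copies were called in 2 comparisons in which the sum was not. In NR against normal food of Tsc1 clones, the fit with the copies summed called 0.0074% of features. As separate rows Hsp70Aa and Hsp70Ab were higher on NR there, by 4.81 ± 1.03 and 4.08 ± 0.89 on the log2 scale (edgeR adjusted p = 0.177 each). Of the 29 fits without 1 library, 10 kept that call for Hsp70Aa and 8 for Hsp70Ab. On NR without knockdown both A copies were higher in Tsc1 than in wt clones, by 4.16 ± 0.99 and 3.61 ± 0.86 (edgeR adjusted p = 0.0796 each). The fit with the copies summed called 0.651% of features there. Of the 29 fits without 1 library, 25 kept each A copy call, which was lost without Tsc1 replicate 3 or wt replicate 2, 3 or 4. Tsc1 NR replicates 3 and 4, with 741 and 381 CPM of fat body markers, belong to both comparisons. Without the libraries high in those markers the food differences were -0.52 and 0.087 and the Tsc1 differences -1.13 and -0.35, and none was called. In the pooled Tsc1 comparison the copies stood at 1.31 to 1.53 (edgeR adjusted p of 0.0582 to 0.199), and the call of Hsp70Bb was kept in 7 of the 29 fits without 1 library. None of the 6 was called there without the libraries high in fat body markers, with values of 0.096 to 0.48.

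Hsp68 did not keep a fixed ratio to the Hsp70 sum. At 30 °C there were 0.89 to 20.2 Hsp68 counts per 100 Hsp70 counts (median 1.59, n = 14), against 0 to 27.7 (median 8.88) in the 12 libraries at 25 °C with at least 50 Hsp70 counts. The mean difference of the log2 ratio within combinations was -1.84 in those libraries (exact 2-sided permutation p = 0.00856) and -2.27 over all 29 (p = 0.00165), with the same caution on choice. Tsc1 NR replicates 3 and 4 had 16.7 and 15.1 Hsp68 counts per 100, and Tsc1_foxoRi NR replicate 3, the other library high in fat body markers, had 1.72.

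Other chaperone genes, from lists that had been chosen with earlier results of these data known, mostly did not follow the Hsp70 genes in the pooled knockdown comparison. Among 5 other heat-inducible genes, 2 were called higher, against 0.518% of all tested features. The first was lncRNA:alphagamma-element:CR32865, a non-coding transcript of the repeats inside the B cluster, at 2.94 ± 0.65 (edgeR adjusted p = 0.0444), which averaged 4.85 ± 1.38 CPM in Tsc1_foxoRi and 0.08 ± 0.10 CPM in Tsc1 clones on normal food (n = 4 each). The second was DnaJ-1, a J-domain co-chaperone of Hsp70 that heat also induces, at 0.80 ± 0.15 (adjusted p = 0.00667), just past the fold threshold, and its value was 0.75 to 0.87 over the 29 fits without 1 library, 15 of which lost the call. DnaJ-1 averaged 92.5 ± 15.4 CPM in Tsc1_foxoRi and 53.1 ± 14.7 CPM in Tsc1 clones on normal food (n = 4 each). The 3 not called were Hsp83, the fly Hsp90 (0.26), the co-chaperone gene stv (0.45) and lncRNA:Hsromega (0.52). The median log2 fold change of the 5 was 0.52, against 0.01 over all tested features.

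None of the 10 tested genes of the small heat shock protein list was called. Their median was 0.18, with 10 of 10 fitted above 0, of which l(2)efl and CG13133 averaged under 1 CPM. Heat shock factor drives such genes as well, and its part in these values was not tested. Hsp22 and CG4456 (Hsp67Bb) had nearly the same CPM in most libraries, such as 27.4 each in Tsc1 NR replicate 3, so they do not count as separate genes. Within the combinations, 10 of 10 were above 0 in wt and 9 in Tsc1 clones on normal food. On NR it was 6 in wt and 2 in Tsc1 clones, with a median of -0.62 in the latter. In the pooled comparison Hsp22 stood at 0.11 ± 0.51, Hsp26 at 0.11 ± 0.29 and Hsp23 at 0.36 ± 0.34. On NR Hsp22 was 0.37, 0.67, 0 and 2.99 CPM in Tsc1_foxoRi clones, against 1.41, 7.18, 27.4 and 8.78 CPM in Tsc1 clones, with overlap. The study's RNAi lines, which covered its genes lower with foxo knockdown in these clones, included Hsp22/CG4456. Hsp26 was 48.8, 89.9, 58.1 and 165 CPM in Tsc1_foxoRi clones on normal food, against 21.7, 54.4, 75.8 and 136 CPM in Tsc1 clones, so the same libraries that differed widely in the Hsp70 sum overlapped here. Hsf itself stood at 0.05 ± 0.15 (edgeR adjusted p = 1.00), and none of the 12 tested genes of heat shock factor and Hsp70 co-chaperones was called (median 0.01). Nor were any of the 5 constitutive Hsp70 family genes, which serve unstressed cells (Hsc70-4 0.09 ± 0.10, Hsc70-3 of the endoplasmic reticulum 0.04 ± 0.13), or any of the 5 tested genes of the mitochondrial chaperone list (median 0.03).

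In the pooled Tsc1 against wt comparison, where 5.61% of all tested features and 3 of 5 muscle and 1 of 4 fat body markers were called higher, the lists gave other members. The mitochondrial genes Hsp60A (0.87 ± 0.19), CG11267 (1.25 ± 0.20), Roe1 (1.07 ± 0.22) and the mitochondrial Hsp70 gene Hsc70-5 (0.85 ± 0.18) were called higher in Tsc1 mutant clones (edgeR adjusted p of 0.00578, 0.000242, 0.00269 and 0.00304), as was 1 of 10 small heat shock protein genes, l(2)efl, which did not exceed 1.95 CPM in any library. CG11267 and Roe1 kept that call in the 29 fits without 1 library. Hsp60A lost it without Tsc1_foxoRi NR replicate 2 (0.79), Hsc70-5 without foxoRi NR replicate 1 (0.78), and l(2)efl without either foxoRi NR clone or Tsc1 replicate 3 on normal food. None of the 5 other heat-inducible genes and none of the 12 genes of heat shock factor and co-chaperones was called, and the median over all features was 0.15.

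**Figure D5:**
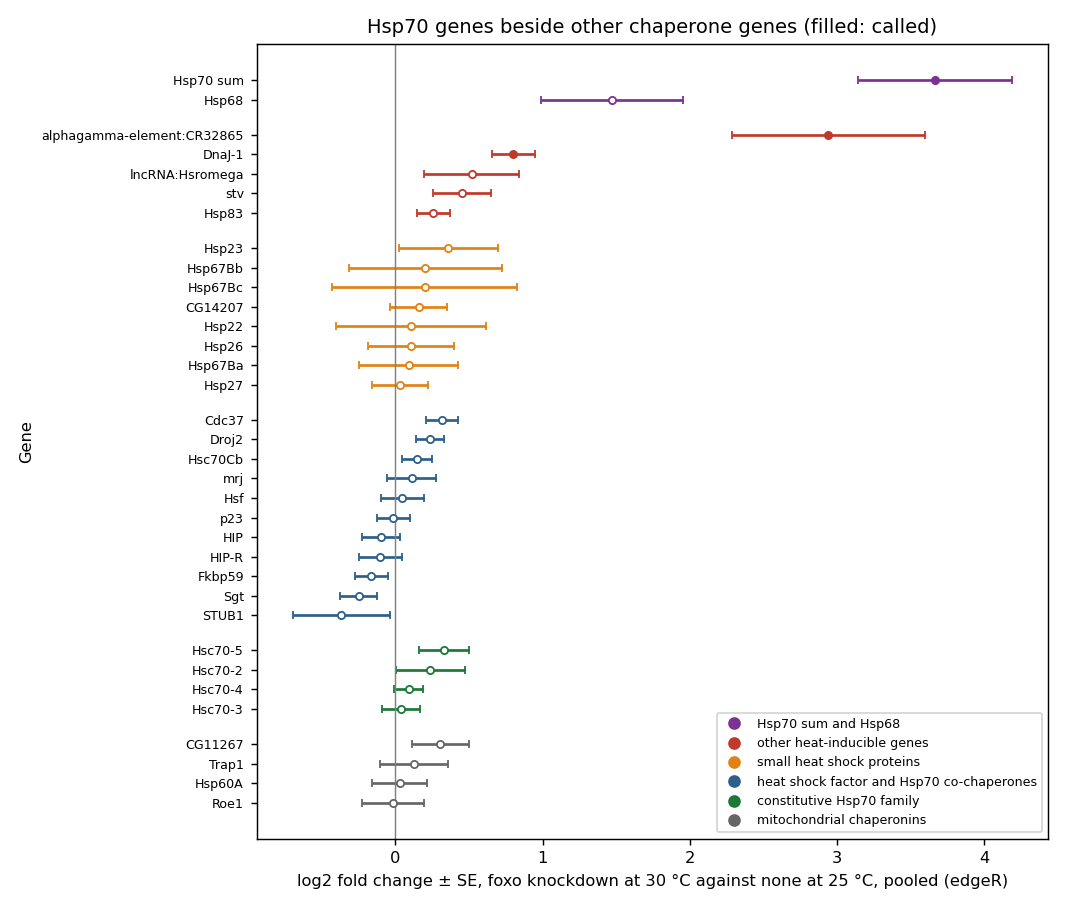
Log2 fold change ± SE (edgeR, horizontal axis) between foxo knockdown at 30 °C and no knockdown at 25 °C, pooled over genotypes and foods, for the Hsp70 sum, Hsp68 and 32 genes of the other chaperone lists, with 1 gene per line and 5 genes averaging under 1 CPM not drawn. Filled points were called; apart from the Hsp70 sum (3.66) only lncRNA:alphagamma-element:CR32865 (2.94) and DnaJ-1 (0.80) are filled.

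The genes whose levels ran most like the Hsp70 sum were found by Spearman's rho of log2(CPM + 2) over the 29 libraries, which share their groups, depth and normalization, among all other tested features. lncRNA:alphagamma-element:CR32865 (3R, 12475336 to 12478267, between Hsp70Ba and Hsp70Bbb) came first with a rho of 0.93, with 0.87 among the 14 libraries at 30 °C alone and 0.78 among the 15 at 25 °C. Hsp68 followed with 0.80 (0.52 at 30 °C, 0.59 at 25 °C), then w with 0.78 (0.58 and 0.53 at 30 and 25 °C), DnaJ-1 with 0.76 (0.32 and 0.41), CG5290 with 0.72, CG31808 with 0.71, kek6 with 0.70, gt with 0.66, and Gr64d and Gr64e with 0.66 each. Gr64d and Gr64e, neighbouring taste receptor genes whose annotations overlap, had negative values at 30 °C alone (-0.18 and -0.21).

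w encodes a pigment transporter, and a short form of it marks many fly transgenes. It was 36.9 to 394 CPM (median 183) at 30 °C, against 8.90 to 48.2 CPM (median 18.5) at 25 °C. The 3 highest values at 25 °C, 48.2, 46.5 and 43.9 CPM, were those of wt NR replicate 4, Tsc1 replicate 4 on normal food and wt NR replicate 2, the libraries in which Hsp70Bb took 46.9% to 53.55% of the Hsp70 counts. In Tsc1 NR replicates 3 and 4, high in fat body markers and in Hsp68, w stood at 15.6 and 11.1 CPM. Whether reads of transgenes contributed to w or to the Hsp70 copies was not tested.

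For Hsp68 the 5 most alike genes were lncRNA:alphagamma-element:CR32865 (rho of 0.81), the Hsp70 sum (0.80), CG5290 (0.72), CG12375 (0.71) and CG31808 (0.71). At 30 °C alone these were 0.43, 0.52, 0.59, 0.56 and 0.43, in the same order, and at 25 °C alone 0.49, 0.59, 0.58, 0.76 and 0.63. The most alike gene reached 16.9 CPM in Tsc1 NR replicate 3 and 4.52 CPM in replicate 4, the highest values at 25 °C, against 0 to 1.67 CPM in the other 13 libraries at 25 °C and 0.78 to 12.2 CPM at 30 °C.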

How the data were processed

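RNA was amplified from laser-captured clones with the Ovation SoLo kit. Per the labels and the study's methods the authors trimmed reads with Trimmomatic, aligned them to BDGP6 with STAR and counted them with featureCounts (versions and the treatment of reads that map to several places are not given in the sources used here). The deposited values are expected counts per gene: 26% of positive values were not whole. They were rounded for the tests. The 7 members, lists, groupings and tests were chosen with earlier results of these data known.

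The main fit used edgeR 4.0.16 (R 4.3.3; TMM factors, filterByExpr, glmQLFit with 1 coefficient per group) on 29 libraries; adjusted p-values are Benjamini-Hochberg over 13509 features, and SE is the log2 fold change over the square root of F. The 2 libraries with the fewest detected genes were left out because the study analysed 29 without naming them. Exact permutation tests used log2(CPM + 2). Named genes were the members, foxo, Tsc1, called list genes and the 10 or 5 most alike genes. The fit was tested on simulated data with known changes. Gene names came from a table that named 17252 of 17559 features. Alternatives, DESeq2 1.42.0 included, are given in the closing section. Hsbp1, Hop and Ahsa1 were not analysed here.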

Additional observations from a re-analysis of the deposited data

Results flagged for a closer look

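In a gap test of the highest and lowest library in each group of 4, run on log2(CPM + 2) in 12 groups and expected to mark about 1 in 20 by chance, 2 libraries stood apart. The Hsp70 sum in Tsc1_foxoRi NR replicate 4 was 916.09 CPM, against 424 to 470 CPM in the other 3 clones of the group. Hsp68 in Tsc1_foxoRi replicate 1 on normal food was 17.68 CPM, against 6.59 to 7.67 CPM in the other 3. A foxoRi NR library that was left out for its low number of detected genes (4410) had an Hsp70 sum of 125.8 CPM, above the wt NR clones, and its counts were 33.3% Hsp70Bb, 33.1% Hsp70Bbb and 33.1% Hsp70Bc with 0.54% on the A copies.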

How the results depend on the processing

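The alternatives were other scaling factors, no filter on low counts, unrounded counts, all 31 libraries, DESeq2, a replicate block, the groups of a comparison alone, no ribosomal RNA genes, the copies as separate rows, another pseudocount and each library left out in turn. Leaving out the libraries high in fat body or photoreceptor markers, and the minimum of 50 Hsp70 counts, were chosen after seeing the data. The Hsp70 sum was called in the pooled knockdown comparison under every alternative, and Hsp68 in the pooled Tsc1 comparison likewise. With DESeq2, Hsp68 was called in the pooled knockdown comparison (1.53), and both genes in wt clones on normal food (4.60 for the Hsp70 sum, 4.92 for Hsp68), as was the food interaction of Hsp68 (-4.11). With all 31 libraries the foxoRi against wt difference of the Hsp70 sum on normal food was called (4.82), and its permutation difference between Tsc1 and wt clones without knockdown on normal food was 0.06. Without the libraries high in fat body markers, Hsp68 was 2.45 in the pooled knockdown comparison, 1.99 in Tsc1 clones on NR and 4.80 for foxoRi against wt on normal food, and its food difference in Tsc1 clones was -0.14. There the Hsp70 sum was 4.59 in wt clones on normal food, 0.38 for Tsc1 against wt pooled and -1.63 on NR without knockdown, 2.06 for the genotype interaction, and -0.21 and 0.055 for food in Tsc1 and Tsc1_foxoRi clones, while Hsp70Aa and Hsp70Ab in Tsc1 clones on NR were 4.02 and 3.65, and -1.13 and -0.35 for Tsc1 against wt on NR without knockdown. In that last comparison Hsp70Ba, Hsp70Bb, Hsp70Bbb and Hsp70Bc were -1.81, -2.30, -1.36 and -1.44, and for food in Tsc1 clones Hsp70Aa, Hsp70Ba and Hsp70Bb were -0.52, -0.37 and -0.50. The calls of Hsp70Aa and Hsp70Ab in these 2 comparisons were also lost with all 31 libraries and with the replicate block. Without the photoreceptor-rich libraries the Hsp70 sum was 3.64 and Hsp68 4.83 in wt clones on normal food, and the Hsp70 sum was 0.055 for the genotype interaction, 0.65 for food in foxoRi clones and -0.68 for Tsc1 against wt without knockdown on normal food. At 30 °C alone the rho of Gr64d and Gr64e was -0.18 and -0.21. The cause of these shifts was not tested.

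Between knockdown and no-knockdown groups of the same genotype and food, 12 of 13 same-numbered pairs correlated above 0 but 3 above 0.1 (-0.04 to 0.20). Pairs with other numbers ran from -0.27 to 0.32. The numbers were not taken to pair the samples in the main fit, so a weak effect shared by replicate number is not removed from it. Pairs across genotype or food were not compared. With the replicate block the Hsp70 sum was 1.08 for Tsc1 against wt pooled (edgeR adjusted p = 0.236), 0.35 for the genotype interaction, 0.52 for food in foxoRi clones and -0.56 for Tsc1 against wt without knockdown on normal food, and Hsp70Ab in Tsc1 clones on NR was 0.012.

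With each library left out in turn, the pooled knockdown value of Hsp68 ran from 1.35 to 1.83. In Tsc1 clones on normal food the Hsp70 sum ran from 5.25 to 6.69. For foxoRi against wt on normal food it ran from 3.61 to 4.96 and Hsp68 from 4.53 to 5.03. Tsc1 against wt ran from 1.10 to 1.67 pooled and from -0.73 to 0.74 without knockdown on normal food for the Hsp70 sum, and its genotype interaction from -0.45 to 0.66. Food gave -0.39 to 0.91 in foxoRi clones and -0.35 to 0.11 in Tsc1_foxoRi clones for the Hsp70 sum, and -0.49 to 0.14 in Tsc1_foxoRi clones for Hsp68. In Tsc1 clones on NR Hsp70Aa ran from -1.55 to 0.45 and Hsp70Ab from -0.78 to 0.99.

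The number of features called also moved: 116 in the pooled knockdown comparison became 61 with all 31 libraries, 227 with DESeq2, 42 without the libraries high in fat body markers and 19 to 176 with 1 library left out. The 1009 of the pooled Tsc1 comparison became 633 and 446 without the libraries high in fat body and in photoreceptor markers.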
